A study of Caenorhabditis elegans with 8 samples.

Results

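The proteasome is the protease that degrades ubiquitin-tagged proteins in the cytosol and nucleus. Its core particle is a barrel of stacked alpha (pas) and beta (pbs) rings with the proteolytic sites inside. The regulatory particle caps the barrel: a base with a ring of ATPases (rpt) unfolds the substrate and feeds it in, and a lid of non-ATPase subunits (rpn) removes the ubiquitin chain. In Caenorhabditis elegans the oocyte-to-embryo transition depends on timed protein degradation, and the proteins OMA-1 and LIN-41, which bind mRNAs and regulate their translation while oocytes grow, act just before it. The subunit genes were taken as all genes of the deposited table whose symbol began with pas-, pbs-, rpn- or rpt-, which gave 32 of 16031 genes. They comprised 14 core genes, 7 of the alpha ring and 7 of the beta ring, and 18 regulatory genes, 9 of the base and 9 of the lid. The symbol rule left out rpn-13, which the deposited table lists under its sequence name C56G2.7, and dss-1, the small lid subunit; both are described separately.

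The study sequenced RNA of 8 libraries in 6 groups. All animals carried fog-1(q253ts), which feminises the germ line at 25 °C. Stocks were kept at 15 °C, and the animals of all groups were grown at 25 °C. Collection was at the young adult stage, about 48 h after feeding began. One strain was oma-1(zu405te33) with the transgene tnIs17, in which the oma-1 promoter drives OMA-1 fused to S, TEV and GFP tags, with unc-119(+) on the same transgene. The other was lin-41(tn1541), with GFP, TEV and S tags at the endogenous lin-41 gene. Each tagged protein had 2 immunoprecipitates (IPs), all made with an equal mixture of the antibodies 12A6 and 4C9, and each strain had 1 lysate depleted of ribosomal RNA and 1 lysate without depletion. The labels name no IP from untagged animals among the 8 libraries, so binding and nonspecific carry-over cannot be told apart. The IPs were labelled as having no RNA enrichment, so the depletion and the IP cannot be told apart in a ratio of IP over depleted lysate. Levels and ratios were taken from the authors' deposited table, and the errors, the tests for lower values and the rescaled ratios were computed from it. It gives 1 pooled FPKM (fragments scaled by transcript length and depth) per gene in the depleted lysates, in the OMA-1 IPs and in the LIN-41 IPs. It also gives log2 ratios, in which each kind of IP is divided by the pooled depleted lysates. No value per library was analysed here, so no value has an SD and the depth per library is unknown. The authors' deposited baseMean, a scaled mean read count over libraries, was 191 for rpn-6.2 and between 421 and 2539 for the other members.

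The lysates came from whole animals and both tagged proteins act in the germ line. The oocyte list of 8 markers summed to 1704 FPKM in the lysates, 9852 FPKM with OMA-1 and 6390 FPKM with LIN-41 in the authors' deposited table. The largest parts of the OMA-1 sum were puf-5 (3957 FPKM), oma-2 (2339 FPKM) and oma-1 (1113 FPKM). The oocyte marker mei-1 went the other way with OMA-1, with 78.7, 39.2 and 126 FPKM in lysates, OMA-1 IPs and LIN-41 IPs. Summed somatic lists were higher in the lysates than in either IP, by the authors' deposited table: 6 intestine markers summed to 3647, 833 and 1105 FPKM, 5 body wall muscle markers to 654, 445 and 224 FPKM, and the hypodermis list was carried by col-19, at 725, 192 and 373 FPKM. The other hypodermis markers, dpy-7, rol-6 and bli-1, had at most 1.1 FPKM in any pool, and bli-1 was higher in both IPs than in the lysates (0.62, 1.1 and 0.97 FPKM in the authors' deposited table). Against their lists, rol-6 was higher with LIN-41 (0.56, 0.25 and 1.04 FPKM) and the intestine marker elt-2 slightly higher with OMA-1 (2.07, 2.22 and 1.28 FPKM). The part of these cell types in the results for the proteasome was not tested. In such bulk samples fewer cells of a type and less RNA per cell cannot be told apart. The FPKM columns of the authors' deposited table also summed to unequal totals: 394382 (lysates), 1006225 (OMA-1) and 762130 (LIN-41). Scaling the columns to equal totals outside the mitochondrial genome shifted OMA-1 ratios by -1.33 and LIN-41 ratios by -0.95 on the log2 scale. Directions below are therefore given under the deposited scaling, beside the median of all genes.

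In the whole-animal lysates the subunit mRNAs lay within a narrow band, apart from rpn-6.2. The authors' deposited table gave 31 of the 32 genes between 53.3 FPKM (pbs-5) and 130 FPKM (rpt-1), a median of 84.7 FPKM and a coefficient of variation across genes of 24.5%. The alpha ring had a median of 80.9 FPKM, the beta ring 81.0 FPKM, the base 88.7 FPKM and the lid without rpn-6.2 103 FPKM. The median of all genes was 3.04 FPKM in the lysates. In the authors' deposited table rpn-6.2, the second gene for the lid subunit RPN-6, had 7.17 FPKM. The band widened in the IPs: the coefficient of variation of the 31 genes was 37.0% with OMA-1, from 24.0 FPKM (pbs-7) to 96.6 FPKM (pbs-6), and 27.8% with LIN-41, from 31.3 FPKM (pbs-7) to 99.5 FPKM (rpn-11). Together the 32 genes made up 0.694% of all FPKM in the lysates, 0.146% in the OMA-1 IPs and 0.235% in the LIN-41 IPs, shares that a constant factor between columns does not change.

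**Figure D1:**
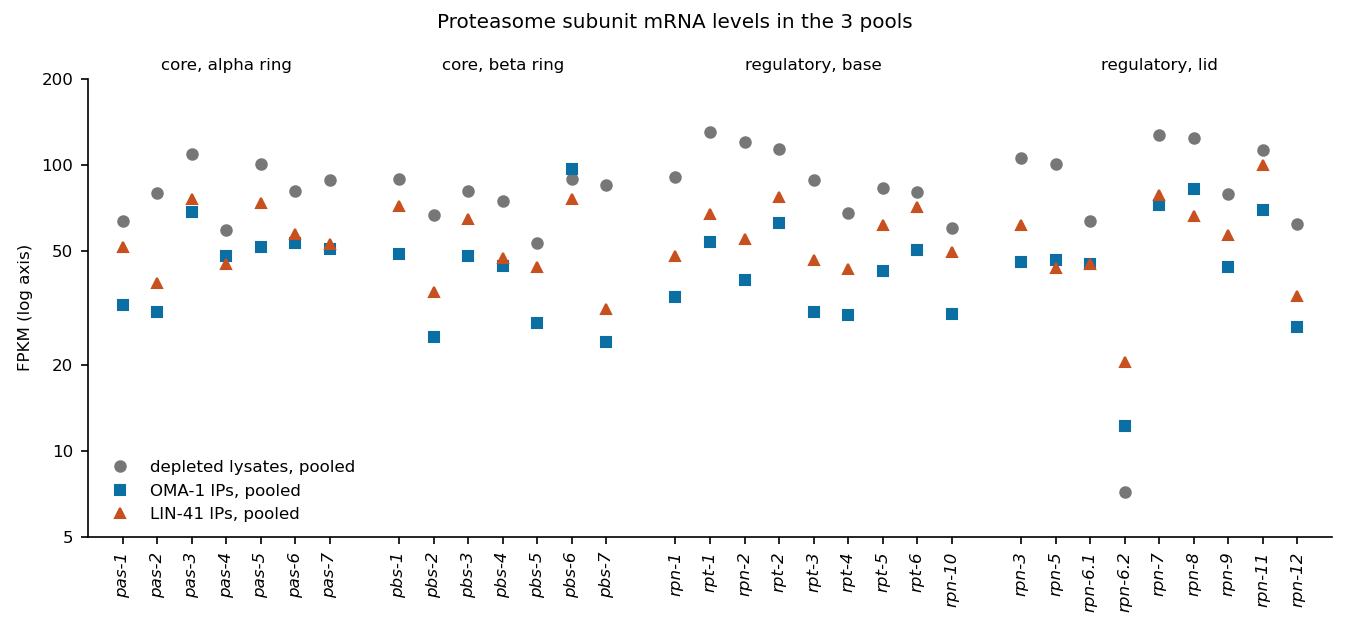
Pooled FPKM on a log axis for each of the 32 subunit genes, in the lysates after depletion (circles), OMA-1 IPs (squares) and LIN-41 IPs (triangles), as the authors deposited them, with no replicate values. The lysate value is the highest of the 3 for all genes but pbs-6 and rpn-6.2, and rpn-6.2 lies below every other gene in all 3 pools.

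With OMA-1, transcripts of nearly the whole proteasome were low. By an approximate one-sided test 29 of 32 members were lower in the OMA-1 IPs than in the lysates (adjusted p below 0.05), against 18.7% of the 15742 genes tested and 1966 of the 6768 genes with a baseMean of at least 100. The authors' deposited one-sided test called 1 member higher, rpn-6.2, against 28.4% of all genes tested. The median log2 ratio of the members was -0.89, beside -0.09 over all genes and 0.46 over genes with a baseMean of at least 100. By size, 11 members were lower by at least 2-fold, against 2072 of the 15742 genes tested and 1094 of the 6768 genes with a baseMean of at least 100. The approximate test rests on standard errors (SEs) implied by the deposited ratios and p-values, and each ± below is such an SE, not a deposited value. For 30 of the 32 members these were borrowed from genes of like baseMean with a ratio above 0. The approximate p-values of those members therefore do not measure the spread of the gene tested. The deposited p-values, and the SEs implied by them, rest on the spread between libraries that the labels do not tie to separate cultures.

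Under the deposited scaling fewer members passed the test with LIN-41, and most ratios were nearer to 0. By the same approximate test 22 of 32 members were lower, against 14% of the 13955 genes tested and 1479 of the 6768 genes with a baseMean of at least 100. By size, 4 members were lower by at least 2-fold, against 1183 of the genes tested and 726 of those 6768. The count of 4 was thus near the background. The authors' deposited test again called 1 member higher, rpn-6.2, against 27.2% of all genes tested. The median log2 ratio was -0.54, beside -0.05 over all genes and 0.36 over genes with a baseMean of at least 100. The gap between the IPs in lower calls depended on the scaling. Equal FPKM totals made 32 members lower for OMA-1 and 31 for LIN-41. After quantile normalization the count was 31 for each IP. All 9 members not called with LIN-41 under the deposited scaling were lower under both alternatives. The 2 comparisons share their lysate libraries, so their values are set side by side and not counted as separate support.

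**Figure D2:**
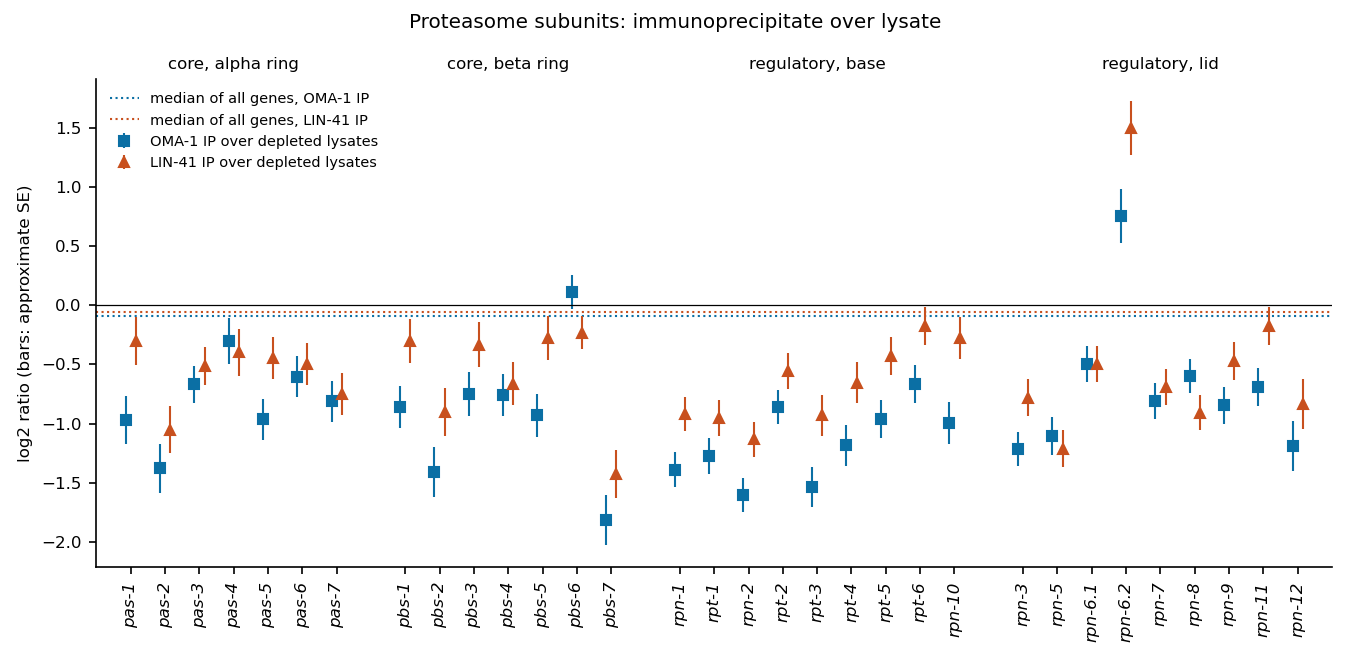
Deposited log2 ratio of the OMA-1 IPs (squares) and the LIN-41 IPs (triangles) over the pooled depleted lysates for each subunit gene, with bars of 1 approximate SE and dotted lines at the median of all genes. All genes but rpn-6.2 and, for OMA-1, pbs-6 lie below 0, with pbs-7 the lowest for both IPs.

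In the alpha ring, whose subunits gate the entry to the barrel, 6 of 7 genes were lower with OMA-1 and 5 of 7 with LIN-41. The lowest was pas-2 (WBGene00003923, chromosome V 10770368 to 10771351 in WBcel235), with 79.9 FPKM in the lysates, 30.6 FPKM in the OMA-1 IPs and 38.5 FPKM in the LIN-41 IPs in the authors' deposited table. Both IP levels were thus below the lysate level, with deposited log2 ratios of -1.38 ± 0.21 (approximate SE) and -1.05 ± 0.20. The other genes called in both IPs were pas-7 (-0.81 and -0.75), pas-3 (-0.67 and -0.52), pas-5 (-0.96 and -0.45) and pas-6 (-0.60 and -0.49), with log2 ratios for OMA-1 and then LIN-41 from the authors' deposited table. The gene pas-4 was called in neither IP, at -0.30 ± 0.20 with OMA-1 and -0.40 ± 0.20 with LIN-41 (adjusted p 0.237 and 0.139 by the approximate test). The gene pas-1 was lower with OMA-1 (-0.97 ± 0.20) and not called with LIN-41 (-0.30 ± 0.20, adjusted p 0.307 by the approximate test), and its difference between the IPs missed the threshold (-0.67 ± 0.29, adjusted p 0.0588).

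The beta ring held both the lowest core gene and the one core gene above 0. In the authors' deposited table pbs-7, a noncatalytic beta subunit, had 84.7 FPKM in the lysates, 24.0 FPKM with OMA-1 and 31.3 FPKM with LIN-41, or 28.4% and 37.2% of the lysate level. Its log2 ratios of -1.81 ± 0.21 and -1.43 ± 0.20 were the lowest of all 32 members in both IPs. It overlaps the gene K07A12.5 on the same strand, so reads of the overlap could count for either. In contrast pbs-6, also noncatalytic, had 89.3, 96.6 and 76.2 FPKM in the authors' deposited table. Its deposited log2 ratio of 0.11 ± 0.14 with OMA-1 had an adjusted p of 0.579 in the authors' deposited table, and with LIN-41 it was -0.23 ± 0.14 (adjusted p 0.258 for lower by the approximate test). With equal totals and with quantile normalization pbs-6 turned negative with OMA-1 (-1.22 and -1.43) and was lower by the approximate test.

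The counterparts of pbs-1, pbs-2 and pbs-5 in other eukaryotes carry the proteolytic sites. All 3 were lower with OMA-1, and pbs-2 was lower with LIN-41 as well. For pbs-2 the authors' deposited table gave 66.9, 25.1 and 35.8 FPKM in lysates, OMA-1 IPs and LIN-41 IPs, log2 ratios of -1.41 ± 0.21 and -0.90 ± 0.20. For pbs-5 it was 53.3, 27.9 and 43.9 FPKM in the authors' deposited table, log2 ratios of -0.93 ± 0.18 and -0.28 ± 0.19. The LIN-41 level of pbs-5 therefore lay nearer to the lysate level than to the OMA-1 level. For pbs-1 the ratios were -0.86 ± 0.18 and -0.30 ± 0.18 in the authors' deposited table. Of the noncatalytic genes, pbs-4 was lower in both IPs (-0.76 and -0.66 in the authors' deposited table) and pbs-3 with OMA-1 (-0.75), while its LIN-41 ratio of -0.33 was not called (adjusted p 0.214 by the approximate test). Over the whole beta ring 6 of 7 genes were lower with OMA-1 and 3 of 7 with LIN-41.

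In the base, all 9 genes were lower with OMA-1 and 7 of 9 with LIN-41. The scaffold subunit gene rpn-2 (WBGene00004459, III 6199184 to 6202594) had 121 FPKM in the lysates, 39.6 FPKM with OMA-1 and 54.8 FPKM with LIN-41 in the authors' deposited table. Its log2 ratio of -1.60 ± 0.14 with OMA-1 was second to pbs-7 in size, and with LIN-41 it was -1.13 ± 0.14. The other scaffold gene, rpn-1, followed at -1.39 ± 0.15 and -0.92 ± 0.15 in the authors' deposited table. All 6 ATPase genes were lower with OMA-1 and 5 of 6 with LIN-41. Among them rpt-3 was lowest with OMA-1, with 88.7, 30.5 and 46.4 FPKM and log2 ratios of -1.54 ± 0.17 and -0.93 ± 0.17 in the authors' deposited table. The ATPase genes rpt-1 (-1.27 and -0.95), rpt-4 (-1.18 and -0.66), rpt-2 (-0.86 and -0.55) and rpt-5 (-0.96 and -0.42) were lower in both IPs, with log2 ratios for OMA-1 and then LIN-41 from the authors' deposited table. The least reduced ATPase gene was rpt-6 (-0.66 ± 0.16 and -0.18 ± 0.16), which was not called with LIN-41 (adjusted p 0.489 by the approximate test). The gene of the ubiquitin receptor RPN-10, which in worms is also known for a role in germline sex determination, had 60.1, 30.1 and 49.7 FPKM in the authors' deposited table. It was lower with OMA-1 (-0.996 ± 0.18) and not called with LIN-41 (-0.27 ± 0.18, adjusted p 0.283 by the approximate test).

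In the lid, 8 of 9 genes were lower with OMA-1 and 7 of 9 with LIN-41, and the remaining gene with OMA-1 was rpn-6.2. The gene of RPN-11, the metalloprotease that cuts the ubiquitin chain off the substrate, had 112 FPKM in the lysates, 69.3 FPKM with OMA-1 and 99.5 FPKM with LIN-41 in the authors' deposited table. It was lower with OMA-1 (-0.69 ± 0.16) and, at -0.17 ± 0.16, not called with LIN-41 (adjusted p 0.493 by the approximate test). The lid genes rpn-3 (-1.21 and -0.78), rpn-12 (-1.19 and -0.83), rpn-9 (-0.84 and -0.47) and rpn-7 (-0.81 and -0.69) were lower in both IPs, with log2 ratios for OMA-1 and then LIN-41 from the authors' deposited table. The lid genes rpn-5 and rpn-8 were among the 5 members whose ratio was not lower with OMA-1 than with LIN-41. In the authors' deposited table rpn-8 had 124, 82.2 and 66.3 FPKM, and its log2 ratio was -0.60 ± 0.15 with OMA-1 against -0.91 ± 0.15 with LIN-41. The corresponding log2 ratios of rpn-5 were -1.11 ± 0.16 and -1.21 ± 0.16 in the authors' deposited table.

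Core and regulatory particles had overlapping ratios. With OMA-1 the median log2 ratio was -0.84 for the 14 core genes and -0.996 for the 17 regulatory genes without rpn-6.2, and with LIN-41 it was -0.47 and -0.69. With OMA-1 the core spanned -1.81 to 0.11 and the 17 regulatory genes -1.60 to -0.50. The core genes pbs-7, pas-4 and pbs-6 lay outside the range of the regulatory genes. Within the regulatory particle the base had a median of -1.18 and the lid without rpn-6.2 one of -0.83 with OMA-1, and -0.66 and -0.74 with LIN-41, so the order of base and lid was not the same in both IPs. Summed FPKM of the core divided by that of the regulatory particle was 0.694 in the lysates, 0.795 in the OMA-1 IPs and 0.747 in the LIN-41 IPs, a ratio that a constant factor between columns does not change. These contrasts are descriptions, since genes are not replicates.

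Of the subunits outside the symbol rule, rpn-13 had values in the range of the members, and dss-1 had a LIN-41 ratio below that range. For rpn-13, a ubiquitin receptor of the base, the authors' deposited table gave 74.9, 43.7 and 56.4 FPKM, with log2 ratios of -0.78 ± 0.16 for OMA-1 (lower by the approximate test) and -0.41 ± 0.17 for LIN-41 (adjusted p 0.0539). For dss-1 it was 65.3, 18.97 and 22.2 FPKM in the authors' deposited table, log2 ratios of -1.77 ± 0.26 and -1.55 ± 0.28, lower in both IPs. The lowest LIN-41 ratio among the members was -1.43, that of pbs-7.

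Whether OMA-1 and LIN-41 IPs differed was asked with the difference of the log2 ratios, in which the lysate cancels. For most subunits the ratio was lower with OMA-1 than with LIN-41: the difference was negative for 27 of 32 members, with a median of -0.40 beside -0.03 over all genes. Few single genes passed the approximate two-sided test. Its SE joins the SEs of both ratios, so it still counts the lysate spread and is too wide. A difference that missed the threshold is therefore not shown to be absent. The test called 3 members, all lower with OMA-1, against 12.4% of the 13955 genes tested called in that direction. That count was near the background. In the other direction the test called 0 members, against 19.6% of genes. The 3 genes were rpn-10 (-0.72 ± 0.25, adjusted p 0.0147), pbs-5 (-0.65 ± 0.26, adjusted p 0.0422) and rpt-3 (-0.61 ± 0.24, adjusted p 0.0368). All 9 base genes had a negative difference, from -0.72 (rpn-10) to -0.31 (rpt-2), while the lid spanned -0.74 (rpn-6.2) to 0.31 (rpn-8). With an adjustment over genes with a baseMean of at least 100, 11 members were called, all lower with OMA-1, against 25.7% of the 6768 genes tested. With borrowed SEs set to the median in place of the 95th percentile of like genes, 13 members were called, all lower with OMA-1, against 14.3% of genes. The number of members that differ is thus poorly fixed by these values.

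**Figure D3:**
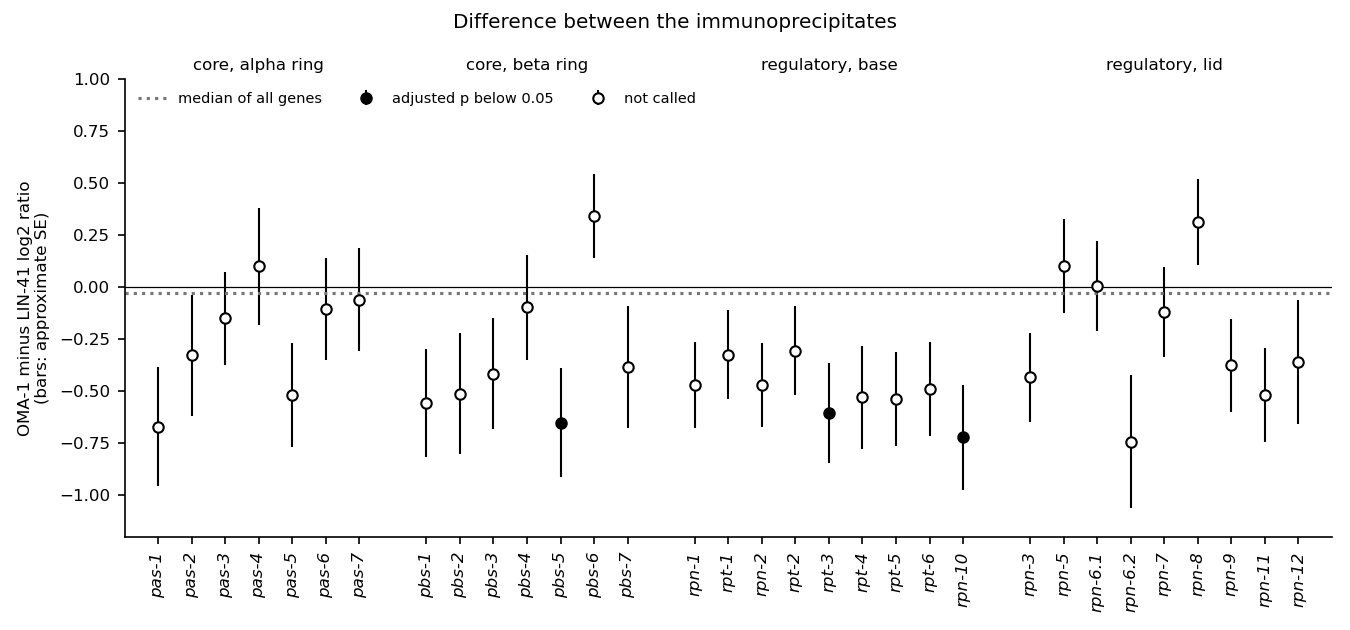
OMA-1 minus LIN-41 log2 ratio of each subunit gene with bars of 1 approximate SE, filled where the adjusted p was below 0.05, and a dotted line at the median of all genes (-0.03). Of the 32 genes 27 lie below 0, and the 3 filled points are pbs-5, rpt-3 and rpn-10.

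The exception to the low values was rpn-6.2 (WBGene00010309, III 8999817 to 9001999, minus strand). It encodes a second form of RPN-6, the lid subunit that in other eukaryotes clamps the regulatory particle to the core. Its sister gene rpn-6.1 (WBGene00004462, III 6959110 to 6962001, minus strand) is the form known in worms for extending lifespan when overexpressed. In the authors' deposited table rpn-6.2 had 7.17 FPKM in the lysates, 12.2 FPKM in the OMA-1 IPs and 20.5 FPKM in the LIN-41 IPs, so it was lowest in the lysates and highest with LIN-41. The authors' deposited table gave a log2 ratio of 0.76 ± 0.23 (approximate SE) for OMA-1 with an adjusted p of 0.00181, and 1.501 ± 0.23 for LIN-41 with an adjusted p of 9.11e-11. The difference between its IP ratios, -0.74 ± 0.32, missed the threshold (adjusted p 0.0622 by the approximate test). With equal FPKM totals the OMA-1 ratio of rpn-6.2 turned to -0.58 and was called lower (adjusted p 0.0129 by the approximate test). Its LIN-41 ratio fell to 0.55 under that scaling (adjusted p 0.0582 for higher by the approximate test). Quantile normalization left 0.55 and 1.37, both called higher.

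The contrast of rpn-6.2 with its sister gene kept its direction under each scaling tried. In the authors' deposited table rpn-6.1 had 63.5, 45.0 and 44.9 FPKM, was lower in both IPs, and had a log2 ratio of -0.50 ± 0.15 in each IP. The share of rpn-6.2 in the FPKM of the pair was 10.2% in the lysates, 21.3% in the OMA-1 IPs and 31.4% in the LIN-41 IPs. On the log2 scale rpn-6.2 exceeded rpn-6.1 by 1.25 ± 0.27 with OMA-1, a 2.38-fold difference in IP over lysate, and by 2.0 ± 0.27 with LIN-41, a 4.00-fold difference. A constant factor between columns leaves these values as they are, while quantile normalization raised them to 2.16 with OMA-1 and 2.83 with LIN-41, or 4.47-fold and 7.10-fold. These contrasts are given without a test, since rpn-6.2 was singled out with its values known. The authors' indicator of genes affected by low-quality or multimapping reads was set for 69 of 16031 genes, and neither sister gene was among them.

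Another readout in the authors' deposited table, spermatogenic over oogenic dissected gonads of another study (fem-3(q96gf) over fog-2(q71)), also set rpn-6.2 apart. In the authors' deposited table rpn-6.2 had a log2 ratio of 3.43 towards spermatogenic gonads, with an adjusted p stored as 0. The same column of the authors' deposited table gave rpn-6.1 -1.02 (adjusted p 8.14e-20) and rpn-11 -0.71 (adjusted p 6.37e-09), both towards oogenic gonads. In all 13 members were called higher in spermatogenic gonads, against 27.6% of the 14888 genes with a value, and 2 higher in oogenic gonads, against 28.2%. Apart from rpn-6.2 the members called towards spermatogenic gonads changed little, up to 0.78 for rpt-6, and the median of all 32 was 0.25 beside 0.12 over all genes. The animals of the IP study were feminised. The 4 sperm markers measured, of 8 listed, summed to 1.92 FPKM in the lysates, 1.31 FPKM with OMA-1 and 2.33 FPKM with LIN-41 in the authors' deposited table. These markers did not move together. In the same order spe-41 had 1.62, 0.63 and 1.38 FPKM and spe-38 0.08, 0.46 and 0.73 FPKM, while spe-9 and fer-1 lay between 0.08 and 0.14 FPKM. The rpn-6.2 level in each pool exceeded the sum of the 4 sperm markers. FPKM of different genes do not show a source, and the other listed sperm markers had no value. Which cells the rpn-6.2 reads came from was not tested.

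**Figure D4:**
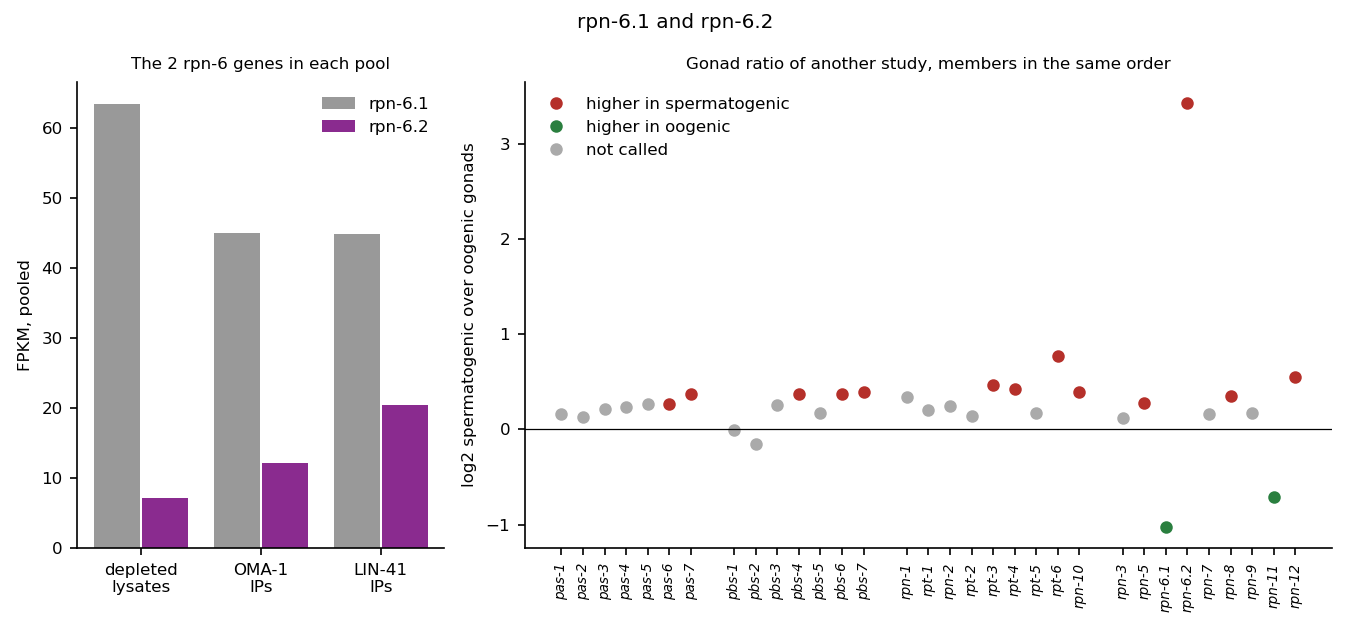
Left, pooled FPKM of rpn-6.1 and rpn-6.2 in each of the 3 pools. Right, the deposited log2 ratio of spermatogenic over oogenic gonads for each subunit gene, coloured by the deposited call; rpn-6.2 stands at 3.43 and rpn-6.1 at -1.02.

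The neighbours of rpn-6.2 on chromosome III had differing ratios. The gene F59B2.3 lies 50 bases downstream on the same strand, and the authors' deposited table gave it log2 ratios of -0.44 with OMA-1 and -0.16 with LIN-41. On the other side zif-1, the gene of a CUL-2 ubiquitin ligase adaptor that acts in early embryos, starts 779 bases away and runs in the opposite direction (III 9002779 to 9004839). For zif-1 the authors' deposited table gave 114, 4344 and 4410 FPKM and log2 ratios of 5.25 and 5.27. The short gene F59B2.15 between them had under 2 FPKM in each pool and was not called higher in either IP in the authors' deposited table, which gives it a gonad log2 ratio of 7.54 towards spermatogenic gonads. Farther off on the same strand, skat-1 (3030 bases away) had log2 ratios of 1.96 and 4.08 and rab-6.1 (2821 bases away) 0.99 and 0.95. Both were called higher in both IPs in the authors' deposited table, while R08D7.7, 4997 bases away, was called higher in neither. No annotated gene overlapped rpn-6.2 or rpn-6.1, while 10 of the 32 members overlapped another protein-coding gene of the table. The strand setting of the counting is not given in the sources used here, so reads of overlapping genes on opposite strands cannot be told apart. One such pair is rpt-4 and nfyc-1.

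The authors' deposited table also holds log2 ratios from an earlier OMA-1 IP experiment, which had a median of -0.87 over the 32 members and -0.14 over all genes. Its lowest member was rpn-2 at -2.04, and pbs-7 stood at -1.62. The highest were rpn-6.2 at 0.62 and pbs-6 at 0.39. By particle the medians of the earlier IP were -0.67 for the core and -1.204 for the regulatory genes without rpn-6.2 in the authors' deposited table.

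Of the properties that the symbol rule did not use, 3' UTR length had almost no correlation with the IP ratios across members, and coding length a negative one. The genes lay on all 5 autosomes, with 10 on I, 7 on II, 7 on III, 3 on IV and 5 on V. Their annotated 3' UTRs had a median length of 170 bases, from 90 (pbs-1) to 662 (rpn-7), beside 186 bases over genes with a baseMean of at least 100. Across the 31 members without rpn-6.2, Spearman's rho between 3' UTR length and log2 ratio was -0.05 for OMA-1 and -0.06 for LIN-41. Between coding length and log2 ratio it was -0.19 and -0.23, with Pearson's r of -0.38 and -0.35. For the lysate level, which is also the denominator of the ratios, Spearman's rho was -0.05 for OMA-1 and -0.34 for LIN-41. These are correlations across genes of the same pooled libraries, and genes are not independent replicates.

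Genes that act with the proteasome went in both directions. In the cofactor list of 13 genes, 6 were higher and 4 lower with OMA-1, and 6 were higher and 6 lower with LIN-41. The gene psme-3, whose product is an activator that can cap the core in place of the regulatory particle, rose from 42 FPKM in the lysates to 251 FPKM with OMA-1 and 284 FPKM with LIN-41 in the authors' deposited table, log2 ratios of 2.57 and 2.75. The transcription factor gene skn-1, an isoform of which induces proteasome genes, rose from 61.6 to 462 FPKM with OMA-1 and 115 FPKM with LIN-41 in the authors' deposited table, log2 ratios of 2.90 and 0.90. The shuttle factor gene rad-23, which brings ubiquitinated substrates to the proteasome, had log2 ratios of 1.64 and 0.30 in the authors' deposited table, and ubh-4, a proteasome-associated deubiquitinase gene, 1.46 and 0.68, all called higher. In contrast the shuttle factor genes ubql-1 (-1.10 and -0.64) and ddi-1 (-1.51 and -1.27) and the deubiquitinase gene usp-14 (-0.92 and -0.59) were lower in both IPs, with log2 ratios from the authors' deposited table. The list includes dss-1, and with equal totals all of these ratios shift by the amounts given above, which turns the LIN-41 ratios of skn-1, rad-23 and ubh-4 negative.

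Up the pathway, the CDC-48 segregase extracts ubiquitinated proteins from complexes. Its list had 3 of 12 genes higher with OMA-1, near the 28.4% over all genes, and 6 lower. With LIN-41 the list had 7 genes higher and 1 lower. Its highest gene with LIN-41 was ubxn-1, a CDC-48 cofactor, with 75.5, 130 and 460 FPKM and log2 ratios of 0.79 and 2.60 in the authors' deposited table. The lowest with LIN-41 was cdc-48.1 itself, at -0.71 with OMA-1 and -0.75 with LIN-41 in the authors' deposited table. The ubiquitin, E1 and E2 list had 4 of 25 genes higher and 11 lower with OMA-1, and 6 higher and 3 lower with LIN-41. There the ubiquitin gene ubq-2 had 539, 324 and 104 FPKM and log2 ratios of -0.73 and -2.37 in the authors' deposited table. At the other end ubc-6, an E2 gene, had a log2 ratio of 1.27 with OMA-1 and ubc-8 one of 1.34 with LIN-41 in the authors' deposited table.

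Complexes built on the plan of the lid were not alike. All 6 measured genes of the COP9 signalosome, which removes NEDD8 from cullins, were lower in both IPs, with medians of -1.03 (OMA-1) and -0.70 (LIN-41), from -1.43 (csn-6, OMA-1) to -0.49 (csn-6, LIN-41). The 11 genes of the translation initiation factor eIF3 had 6 higher and 1 lower with OMA-1 (median 0.55), and 3 higher and 4 lower with LIN-41 (median -0.01). The highest with OMA-1 was eif-3.C, with log2 ratios of 2.74 and 0.13 in the authors' deposited table, and the highest with LIN-41 was eif-3.E at 1.95. Among other housekeeping complexes, the CCT chaperonin had medians of -1.17 and -1.31, with 5 and 8 of 8 genes lower. The cytosolic ribosomal protein genes had medians of -2.74 and -2.42, with 74 and 77 of 77 genes lower. The proteasome medians of -0.89 and -0.54 thus lay between the median of all genes and these lists. The comparison of lists is a description with no test, and its counts stand beside the shares over all genes given above.

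**Figure D5:**
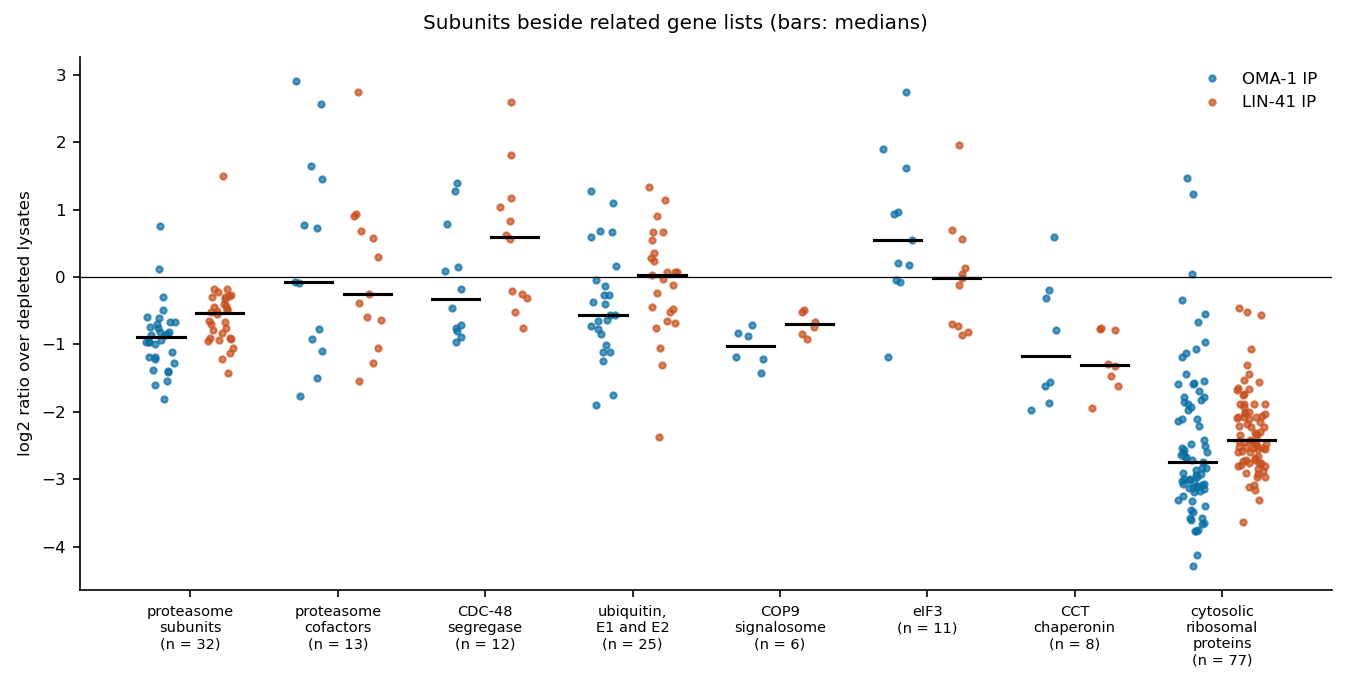
Deposited log2 ratios over the pooled depleted lysates for the 32 subunit genes and 7 related gene lists, with OMA-1 and LIN-41 IPs side by side, 1 point per gene and a bar at each median. The subunits cluster around medians of -0.89 and -0.54, while the cofactor list spans -1.77 to 2.90 with OMA-1.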

How the data were processed

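Per the submitters' processing notes, the build was WBcel235 and the tools included DESeq2 1.12.3, STAR 2.4.2a, Trimmomatic 0.32 and SAMtools 1.0, with no roles stated. The counter, the annotation and whether strand was used were not found in these sources. Per the file headers, the authors deposited log2 ratios of each IP to the pooled depleted lysates, Benjamini-Hochberg adjusted p-values, pooled FPKM, and baseMean, a mean read count signal over libraries. The deposited adjusted p was 1 for every tested gene whose ratio was not positive (8208 genes with OMA-1 and 7187 with LIN-41), so that test was one-sided. A further 4 value columns from other studies were not used. The strain names rise by 1 within a genotype, and 1 strain per genotype was assumed.

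Members, lists and tests were chosen with earlier results of these data known. The text names members by symbol, and from each related list genes called in either IP, the highest and the lowest. Adjusted p-values were turned back into raw one-sided p-values and Wald z, and ratio over z gave an implied SE. Only genes with a ratio above 0 could have an implied SE. Members without one took that of the other IP or the 95th percentile among the 201 genes nearest in baseMean that had one. Normal tests for lower values (one-sided) and for OMA-1 minus LIN-41 (two-sided) were adjusted by the Benjamini-Hochberg method over all genes tested. They are approximate. The planned fits of counts per library were not made, since the table holds pooled values. Alternatives were equal FPKM totals, quantile normalization, a pseudocount of 1 FPKM, a baseMean minimum of 100, median borrowed SEs, adjusted p below 0.01, a 2-fold minimum, and leaving out rpn-6.2. Gene positions came from the Ensembl WBcel235 annotation. Python 3.11.15, NumPy 2.4.6, pandas 2.3.3, SciPy 1.17.1 and Matplotlib 3.10.9 were used.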

Additional observations from a re-analysis of the deposited data

Results flagged for a closer look

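The approximate test of the difference between the IPs set apart 3 subunit genes, each scarcer with OMA-1 than with LIN-41 relative to the same lysates. The OMA-1 minus LIN-41 log2 difference was -0.72 for rpn-10, -0.65 for pbs-5 and -0.61 for rpt-3. Each gene was lower with OMA-1 by the approximate test. For LIN-41 under the deposited scaling, rpt-3 was lower while rpn-10 and pbs-5 were not called. Equal totals and quantile normalization each made rpn-10 and pbs-5 lower for LIN-41 as well. With 12.4% of all genes called in that direction, 3 of 32 is near the background. The gene rpn-10 overlaps B0205.12 on the opposite strand.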

How the results depend on the processing

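No paired analysis was possible because the deposited table holds no value per library; for the same reason no replicate could be left out. With equal totals the number of members called higher fell from 1 to 0 in each IP, the median log2 ratio of the members moved to -2.23 for OMA-1 and -1.49 for LIN-41 (all genes -1.40 and -0.98), and the median difference between the IPs to -0.78 (all genes -0.42). The OMA-1 ratio of rpn-6.2 reversed to -0.58, its LIN-41 ratio fell to 0.55 and missed the threshold, and pbs-6 with OMA-1 turned to -1.22. With quantile normalization the medians were -2.21, -1.68 and -0.58 (all genes -0.07, 0.01 and -0.12) and pbs-6 turned to -1.43. Members lower by the approximate test numbered 29 for OMA-1 and 22 for LIN-41 under the deposited scaling. These counts became 32 and 31 at equal totals, and 31 for each IP after quantile normalization. The contrast in lower calls between the IPs thus depended on the scaling. The number of members differing between the IPs, 3 as reported, was 23 with equal totals (20.7% of all genes called in that direction), 16 with quantile normalization (15.9%), 13 with median borrowed SEs (14.3%), 11 above the baseMean minimum (25.7%), 0 at an adjusted p below 0.01 (9.70%) and 0 with a 2-fold minimum (7.23%), and every call was lower with OMA-1. Quantile normalization moved the rpn-6.2 minus rpn-6.1 contrast from 1.25 to 2.16 with OMA-1 and from 2.0 to 2.83 with LIN-41. A 2-fold minimum left 11 members lower with OMA-1 and 4 with LIN-41, beside 2072 and 1183 genes of the whole table. It left 0 members higher with OMA-1. The causes of these moves were not tested beyond the scaling shifts. The core minus regulatory medians, 0.14 for OMA-1 and 0.20 for LIN-41, were 0.14 to 0.16 and 0.15 to 0.22 under the 5 alternatives tried. Of these, equal totals and the baseMean minimum could not change them. Equal totals shift all genes alike, and the baseMean minimum removes no member. The values stayed positive with quantile normalization, with the pseudocount and without rpn-6.2. Depth per library is unknown, and approximate SEs of 0.14 to 0.23 limit what single ratios can show.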
